A study of Mus musculus with 9 samples.

Results

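Mesaconate given before concanavalin A was compared with concanavalin A alone in mouse liver, in 6 of the 9 RNA-seq libraries of the study, chosen by their labelled group. The 3 libraries labelled ConA came from mice given 20 mg/kg of concanavalin A into the tail vein. The 3 labelled MSA_ConA came from mice that had MSA at 250 mg/kg by intraperitoneal injection 6 h ahead of that same dose. MSA was read as mesaconate from the study's title. The other 3 libraries, labelled Control, came from mice given only PBS (phosphate-buffered saline) into the tail vein, and serve here as background. Per the labels, all mice were wild-type C57BL/6J males aged 8 weeks and weighing 20 to 25 g, randomized to the groups, and livers were taken 12 h after concanavalin A. A group that received MSA alone is not among these samples, and the PBS group is described with the tail vein injection only, so an effect of MSA by itself cannot be told apart from its effect on the response to concanavalin A. Each library has a number from 1 to 3 within its group, and the comparison asks what MSA given first changed in the liver's response.

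Concanavalin A is a plant lectin that binds sugars on cell surfaces and activates T cells, and in mice it brings on an immune-mediated hepatitis. Activated T and NKT cells release interferon gamma and tumour necrosis factor. Interferon gamma acts through IRF1 and other factors on guanylate-binding proteins, chemokines and antigen presentation, and tumour necrosis factor acts through NF-kappa-B on adhesion molecules and its own inhibitors. Hepatocytes answer interleukin-6 through STAT3 with acute-phase proteins. Mesaconate is a dicarboxylic acid related to itaconate, the product of the macrophage enzyme encoded by Acod1. Itaconate is known for activating the antioxidant factor NRF2, and both acids are known for dampening inflammatory gene expression in macrophages.

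The libraries numbered 1 stood apart from those numbered 2 and 3. It was in numbers 2 and 3 that transcripts that tell sex and strain apart went against the labels. Totals over all 9 libraries ran from 13294600 to 17276391 counts, and 14603 of 42188 genes were tested. Xist, the non-coding RNA of X inactivation in females, measured 0.485 and 0.132 CPM (counts per 1000000 of a TMM-scaled library total) in ConA 1 and MSA_ConA 1 and 787 to 1130 CPM in the 4 libraries numbered 2 or 3, although all are labelled male. Mup21, a urinary protein gene of male liver, measured 251 CPM in ConA 1, 668 CPM in MSA_ConA 1 and no more than 1.44 CPM elsewhere, although copies in its family are nearly identical and can share reads. Nnt, a mitochondrial gene of which C57BL/6J carries a partial deletion, measured 34.6 and 29.8 CPM in ConA 1 and MSA_ConA 1 and 223 to 266 CPM in the other 4. The clock genes Arntl (26.3 and 29.5 CPM in number 1, at most 3.59 CPM in the others) and Dbp (6.01 and 6.45 CPM in number 1, at least 99.7 CPM in the others) divided the same way. Across genes, log2 CPM correlated at 0.908 between ConA 1 and MSA_ConA 1, at 0.963 to 0.989 among numbers 2 and 3, and at 0.767 to 0.822 between the 2 sets. Each library is therefore given by its own value. The labels do not say what the numbers stand for. In number 1, as in each number, a group has 1 library and no replicate. Sex, strain, processing and the number itself cannot be told apart in the division by number. Transcripts of the response to concanavalin A were high in ConA 1, while ConA 2 and ConA 3 lay near the PBS controls.

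Genes induced by interferon were far lower in MSA_ConA 1 than in ConA 1, while in numbers 2 and 3 most of them differed little or were slightly higher with MSA. All 20 tested members of the list of interferon gamma-induced genes were lower in number 1, with a median log2 ratio of -4.39, and all 23 of the type I interferon-induced genes were lower there, with a median of -3.33. Over all tested genes 48.8% were lower in number 1 and the median was 0.00. These ratios are of CPM + 1 between libraries of the same number. In numbers 2 and 3 the medians were 0.13 and 0.25 for the first list and 0.35 and 0.24 for the second. The difference of the MSA_ConA to ConA ratio in number 1 from that in numbers 2 and 3 was tested in 1 model (edgeR's quasi-likelihood test, Benjamini-Hochberg adjusted p under 0.05). It was called downward for 18 of 20 interferon gamma-induced genes and 20 of 23 type I genes, and upward for none, where 18.7% of all tested genes were called, 10.1% downward and 8.61% upward. This test takes the lone library numbered 1 of each group to vary like those numbered 2 and 3, and has 3 residual degrees of freedom. A call therefore says that the gap between the single libraries ConA 1 and MSA_ConA 1 departed from the ratio in numbers 2 and 3 by more than their spread, and does not show how animals numbered 1 vary or that MSA acted differently in them.

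Promoters of the genes that anchor this description are shown because many genes of the interferon lists share a sequence feature. The lists were chosen as genes induced by interferon, so the feature is not independent of that choice and gives the ratios no separate support. Each is the 250 bases before the RefSeq start on GRCm38.p6, on the strand of the gene, 5′ to 3′. Capitals mark matches, on either strand, to the interferon-stimulated response element core (GAAA, any 2 bases, GAAA), the STAT core (TTC, any 3 bases, GAA), the NF-kappa-B core (GGGA, any 2 bases, TTCC) and the NRF2 core (TGAC, any 3 bases, GC), and neighbouring or overlapping matches run together. Cxcl10 lies at chr5:92348890-92349139 (minus strand), Gbp2 at chr3:142620413-142620662 (plus), Isg15 at chr4:156200819-156201068 (minus), Nfkbia at chr12:55492648-55492897 (minus) and Socs3 at chr11:117969367-117969616 (minus).
Cxcl10: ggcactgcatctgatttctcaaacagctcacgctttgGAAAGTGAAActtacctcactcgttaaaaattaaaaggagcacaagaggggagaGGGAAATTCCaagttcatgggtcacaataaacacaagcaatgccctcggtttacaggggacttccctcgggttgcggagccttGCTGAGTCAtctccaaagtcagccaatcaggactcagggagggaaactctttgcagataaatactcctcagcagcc
Gbp2: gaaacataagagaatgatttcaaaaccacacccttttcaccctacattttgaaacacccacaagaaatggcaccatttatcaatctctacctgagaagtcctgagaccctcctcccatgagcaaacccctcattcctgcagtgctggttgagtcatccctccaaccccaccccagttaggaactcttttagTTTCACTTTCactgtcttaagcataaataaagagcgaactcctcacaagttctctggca
Isg15: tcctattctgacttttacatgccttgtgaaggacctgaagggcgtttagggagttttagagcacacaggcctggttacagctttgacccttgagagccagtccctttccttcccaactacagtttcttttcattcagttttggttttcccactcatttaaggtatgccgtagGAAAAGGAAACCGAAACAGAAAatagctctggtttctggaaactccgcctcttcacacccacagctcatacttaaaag
Nfkbia: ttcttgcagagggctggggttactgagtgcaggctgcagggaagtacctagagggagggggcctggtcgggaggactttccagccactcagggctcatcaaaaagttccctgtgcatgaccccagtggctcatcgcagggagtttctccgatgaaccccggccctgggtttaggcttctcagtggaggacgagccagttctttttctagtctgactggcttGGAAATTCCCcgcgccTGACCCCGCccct
Socs3: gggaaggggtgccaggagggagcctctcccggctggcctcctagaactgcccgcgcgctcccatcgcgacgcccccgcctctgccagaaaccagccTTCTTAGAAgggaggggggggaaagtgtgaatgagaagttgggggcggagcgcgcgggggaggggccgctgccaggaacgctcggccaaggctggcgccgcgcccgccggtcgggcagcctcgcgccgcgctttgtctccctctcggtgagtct
The interferon core was found in this window in 9 of the 14 interferon gamma-induced genes with a promoter in the RefSeq table (64.3%) and in 7 of 16 type I genes (43.8%), where 3.46% of all 27025 genes of that table have it. Isg15 has 3 matches within the 1 run of capitals, and Cxcl10 has the interferon, NF-kappa-B and NRF2 cores. A match is a description of the letters and not a bound site. Of the genes at least 4-fold lower in MSA_ConA 1 than in ConA 1, 28 of the 359 with a promoter (7.80%) have the interferon core. Of those at least 4-fold higher, 2 of 151 (1.32%) have it, and of all tested genes with a promoter 3.12%. The lower set includes 18 of the 20 interferon gamma-induced and 17 of the 23 type I genes. Its share is therefore not independent of those lists, and the share without them was not tested. The NF-kappa-B core was found in 2 of 13 NF-kappa-B targets (15.4%, 1.36% of all), the STAT core in 7 of 20 acute-phase genes (35%, 8.13% of all), as in Socs3, and the NRF2 core in 4 of 18 NRF2 targets (22.2%, 11.5% of all). The NRF2 core was as frequent in lists that are not of NRF2 targets, at 4 of 18 nuclear genes of oxidative phosphorylation (22.2%) and 3 of 13 immediate early factors (23.1%), and 14% of all tested genes with a promoter have it.

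Irf1, the transcription factor that carries the interferon gamma signal, measured 1746, 37.5 and 37.8 CPM in ConA 1, 2 and 3 and 14.2, 37.3 and 25.9 CPM in MSA_ConA 1, 2 and 3. Every MSA_ConA library was below every ConA library, although MSA_ConA 2 and ConA 2 were nearly level (ratio 0.997). The ratio in number 1 was 123-fold (102 to 150; here and below the exact 95% interval of a ratio between single libraries, which covers counting error only). The difference between numbers was -6.69 on the log2 scale (SE 0.38, adjusted p = 0.00026 by edgeR). Controls measured 44.1 to 47.6 CPM, so MSA_ConA 1 lay below the controls as well. Cxcl10, a chemokine that draws T cells, measured 3511, 3.66 and 2.27 CPM in ConA and 2.63, 2.38 and 2.42 CPM in MSA_ConA, in number order. One library, ConA 1, was high, and the other 5 lay at or below the 13.8 CPM of Control 1. Cxcl10 was 1333-fold lower in number 1 (863 to 2182), with a difference between numbers of -10.07 (SE 0.51, adjusted p = 0.00026 by edgeR).

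Guanylate-binding proteins and interferon-stimulated genes followed the same pattern. Gbp2, a GTPase of cell-autonomous defence, measured 825, 6.80 and 5.50 CPM in ConA and 2.50, 5.86 and 8.75 CPM in MSA_ConA, and was 330-fold lower in number 1 (211 to 548). Its difference between numbers was -8.61 (SE 0.47, adjusted p = 0.00026 by edgeR). Isg15, a ubiquitin-like modifier, measured 476, 5.92 and 3.06 CPM in ConA and 8.16, 5.09 and 4.17 CPM in MSA_ConA, with a difference between numbers of -5.90 (SE 0.51, adjusted p = 0.00086 by edgeR). Gbp7 and Irgm1, further interferon-induced GTPases, were the reverse in the other numbers. Gbp7 measured 70.1, 22.1 and 22.1 CPM in ConA and 3.56, 35.6 and 28.4 CPM in MSA_ConA. Irgm1 measured 681, 67.2 and 63.0 CPM in ConA and 23.3, 82.6 and 75.8 CPM in MSA_ConA. In these 2 genes MSA_ConA 1 was the lowest of the 6 libraries, while MSA_ConA 2 and 3 were above ConA 2 and 3. The lists tell the same: 17 of 20 interferon gamma-induced and 20 of 23 type I genes had a positive fitted fold change in numbers 2 and 3 alone, and none of them was called there. Gbp7, Irgm1 and Isg15 were chosen after their values were seen.

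Transcripts of the cytokines were few. Ifng measured 2.71 CPM in ConA 1 (28 counts) and had no count in MSA_ConA 1, which makes it at least 6.87-fold lower against a floor of 3 counts in that library. Tnf (14.6 CPM in ConA 1) and Il6 (4.75 CPM) also had no count in MSA_ConA 1 and were at least 37.0-fold and 12.02-fold lower. Il1b measured 18.3, 2.52 and 1.76 CPM in ConA and 1.98, 1.55 and 2.21 CPM in MSA_ConA. Only ConA 1 was high, and Il1b was 9.27-fold lower in number 1 (5.48 to 16.9). Il10, an anti-inflammatory cytokine, measured 3.68 CPM in ConA 1 and 0.395 CPM in MSA_ConA 1, where it rests on 3 counts (9.32-fold, 2.96 to 47.2). Its value was at most 0.0515 CPM in numbers 2 and 3. Il1rn, the decoy ligand of the interleukin-1 receptor, measured 613 CPM in ConA 1, 10.8 CPM in MSA_ConA 1 and between 2.43 and 4.09 CPM elsewhere. The list of cytokines and antagonists had 8 of 10 tested members called downward in the test between numbers. The chemokine list had 4 of 11, where 10.1% of all tested genes were called downward. The floor and intervals cover counting error only.

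Targets of NF-kappa-B were lower in MSA_ConA 1 to a like degree. All 18 tested members were lower in number 1 (median log2 ratio -3.73), and 15 of the 17 that reached 10 CPM in either library were at least 4-fold lower. In the test between numbers 16 of 18 were called downward, where 10.1% of all tested genes were. For reference, 6.44% of the 8462 genes that reached 10 CPM were at least 4-fold lower in number 1 and 2.84% at least 4-fold higher, at 545 and 240 genes. Tnfaip3, a deubiquitinase that shuts NF-kappa-B signalling off, measured 1074, 4.43 and 4.88 CPM in ConA and 6.32, 4.26 and 2.83 CPM in MSA_ConA. It was 170-fold lower in number 1 (128 to 230), with a difference between numbers of -7.01 (SE 0.40, adjusted p = 0.00026 by edgeR). Icam1, the adhesion molecule that binds leukocyte integrins, measured 1556 and 15.3 CPM in ConA 1 and MSA_ConA 1 and 13.8 to 16.9 CPM in numbers 2 and 3, so that MSA_ConA 1 lay among them. Nfkbia, which encodes the inhibitor of NF-kappa-B alpha, measured 1745, 26.5 and 26.9 CPM in ConA and 116, 23.3 and 22.2 CPM in MSA_ConA. MSA_ConA 1 was thus 15.0-fold (14.0 to 16.1) below ConA 1 and still above the 26.2 to 29.0 CPM of the controls. Medians of the list in numbers 2 and 3 were -0.11 and -0.01.

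Acute-phase proteins did not move as the interferon genes did. Of the 24 tested STAT3-driven members, 10 were higher and 14 lower in MSA_ConA 1 than in ConA 1, with a median log2 ratio of -0.26 (-0.50 with library totals in place of TMM). The test between numbers called 1 upward and 3 downward, where 8.61% of all tested genes were called upward and 10.1% downward. Hp, which encodes the haemoglobin-binding haptoglobin, measured 41930, 1432 and 1074 CPM in ConA and 59602, 1238 and 1050 CPM in MSA_ConA, and its difference between numbers did not pass (0.64, SE 0.38, adjusted p = 0.27 by edgeR). Fgb, a fibrinogen chain, measured 25783 and 46832 CPM in ConA 1 and MSA_ConA 1 against 4533 CPM in Control 1. Both treated libraries numbered 1 were thus far above Control 1 for these proteins. Socs3, the inhibitor induced by STAT3, stood at 1326 and 891 CPM against 17.9 CPM in Control 1, Lcn2, a siderophore-binding protein, at 10626 and 6026 CPM against 58.6 CPM, and Serpina3n, a protease inhibitor, at 7979 and 7951 CPM against 302 CPM. Differences between numbers did not pass for Socs3 (-0.13, SE 0.46, adjusted p = 0.88 by edgeR). Socs3, Lcn2 and Serpina3n were chosen after their values were seen.

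Saa3 and Crp were lower nonetheless. Saa3, an amyloid protein of macrophages and hepatocytes, measured 6613, 0.670 and 1.02 CPM in ConA and 60.2, 0.774 and 1.13 CPM in MSA_ConA, 110-fold lower in number 1 (100.2 to 121). Its difference between numbers was -6.97 (SE 0.45, adjusted p = 0.00035 by edgeR), and MSA_ConA 1 was above the 27.3 CPM of Control 1. Crp, the gene of C-reactive protein, measured 2105, 304 and 354 CPM in ConA and 114, 381 and 293 CPM in MSA_ConA. MSA_ConA 1 was the lowest of all 9 libraries, below the 209 to 297 CPM of the controls, and the difference between numbers was -4.24 (SE 0.35, adjusted p = 0.00068 by edgeR).

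Among metal-handling genes, a zinc importer was higher with MSA in number 1, and the metallothioneins were not lower. The metallothioneins Mt1 and Mt2, which bind zinc and copper, measured 11709 and 10453 CPM in ConA 1 and 18697 and 15182 CPM in MSA_ConA 1, against 40.1 and 31.3 CPM in Control 1. Slc39a14, the zinc importer of the acute-phase liver, measured 2091, 263 and 304 CPM in ConA and 7374, 294 and 263 CPM in MSA_ConA. It was 3.53-fold higher in number 1 (3.47 to 3.58), and its difference between numbers passed (1.85, SE 0.30, adjusted p = 0.0085 by edgeR). Of the 10 tested genes of that list, 6 were higher and 4 lower in number 1, and 2 each were called upward and downward. Over all tested genes 8.61% were called upward and 10.1% downward.

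**Figure D1:**
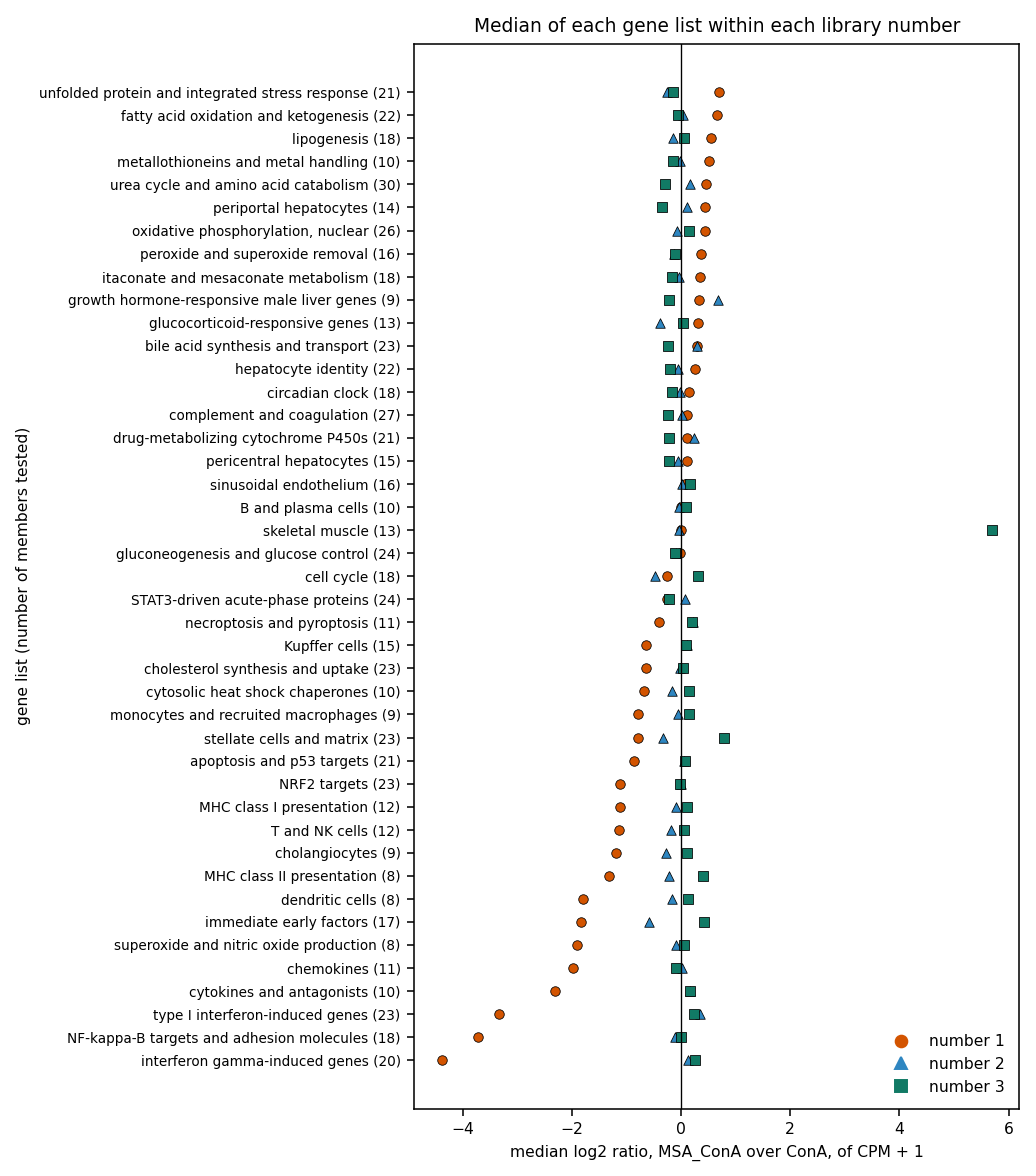
Median log2 ratio of MSA_ConA over ConA, from CPM + 1 (horizontal axis), of each of the 43 gene lists with at least 8 tested members (vertical axis), for library numbers 1, 2 and 3 separately. Number 1 runs from -4.39 for interferon gamma-induced genes to 0.69 for the unfolded protein response, while numbers 2 and 3 stay between -0.59 and 0.78 apart from skeletal muscle markers in number 3 (5.69).

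NRF2 targets, the antioxidant and detoxifying genes that itaconate is known to raise, were lower in MSA_ConA 1 than in ConA 1 for 17 of 23 tested members (median log2 ratio -1.11). The test between numbers called 9 downward and 0 upward, where 10.1% and 8.61% of all tested genes were. Medians of the list were -0.01 and -0.02 in numbers 2 and 3. Hmox1, the haem-degrading oxygenase, measured 3520, 14.5 and 13.1 CPM in ConA and 152, 16.9 and 18.8 CPM in MSA_ConA. MSA_ConA 1 was 23.2-fold below ConA 1 (21.9 to 24.6) and above the 17.5 to 19.0 CPM of the controls, and the difference between numbers was -4.91 (SE 0.28, adjusted p = 0.00026 by edgeR). Gclc, the subunit that catalyses the first step to glutathione, measured 883, 253 and 355 CPM in ConA and 42.5, 347 and 292 CPM in MSA_ConA, with a difference between numbers of -4.45 (SE 0.40, adjusted p = 0.00095 by edgeR). Controls measured 186 to 261 CPM, so MSA_ConA 1 was the lowest of the 9 libraries. Osgin1, an oxidative stress-induced growth inhibitor, stood at 2659 and 166 CPM in number 1, and Srxn1, which reduces oxidized peroxiredoxins, at 600 and 35.2 CPM; Srxn1 was chosen after its values were seen. Nqo1, the quinone reductase often taken as the NRF2 marker, was sparse, at 8.82, 8.96 and 7.21 CPM in ConA and 2.37, 10.3 and 7.88 CPM in MSA_ConA. Genes that remove peroxide and superoxide were not lower as a list: 11 of 16 were higher in number 1 (median 0.36), with 3 called upward and 0 downward. With library totals in place of TMM, 9 of 16 were higher (median 0.12). The list of superoxide and nitric oxide production had 4 of 8 tested members called downward.

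Transcription factors of the immediate early response were lower in MSA_ConA 1. All 17 tested immediate early factors were lower in number 1 (median log2 ratio -1.84), and 8 of 17 were called downward in the test between numbers. Fos, an AP-1 subunit, measured 439, 2.99 and 2.10 CPM in ConA and 8.96, 0.387 and 3.14 CPM in MSA_ConA, with a difference of -5.10 (SE 1.02, adjusted p = 0.017 by edgeR). Without ConA 3 it missed the threshold (adjusted p = 0.051 by edgeR). Junb and Jun, further AP-1 subunits, kept more of their level, at 2228 and 1881 CPM in ConA 1 and 773 and 530 CPM in MSA_ConA 1, against 20.4 and 28.2 CPM in Control 1. Gdf15, a stress-induced hormone, measured 2146 and 62.3 CPM in number 1, and Adm, the vasodilator adrenomedullin, 961 and 3.82 CPM. Cdkn1a, the p53 target that stops the cell cycle, was not among these, at 745 and 1236 CPM in ConA 1 and MSA_ConA 1. The apoptosis and p53 list had 5 of 21 members higher in number 1, with 6 called downward and 2 upward. The shares over all tested genes were 10.1% downward and 8.61% upward.

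Genes of the unfolded protein response went the other way. In number 1, 17 of 21 tested members were higher with MSA (median log2 ratio 0.69, and 0.46 with library totals). Of the 21, 5 were called upward and 1 downward in the test between numbers, against 8.61% and 10.1% of all tested genes. Medians were -0.25 and -0.15 in numbers 2 and 3. Herpud1, which takes part in degradation at the endoplasmic reticulum, measured 479, 251 and 273 CPM in ConA and 2588, 248 and 193 CPM in MSA_ConA, and its difference between numbers was 2.68 (SE 0.37, adjusted p = 0.0052 by edgeR). The chaperone Hsp90b1 measured 354 and 1629 CPM in number 1, and Hspa5, the chaperone BiP, 2032 and 4571 CPM. ConA 1 was below the 584 CPM of Control 1 for Hsp90b1, so MSA_ConA 1 was higher than both.

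Metabolic genes of the hepatocyte were mostly higher in MSA_ConA 1. In number 1, 23 of 30 urea cycle and amino acid catabolism genes (median log2 ratio 0.45), 17 of 22 fatty acid oxidation genes (0.65), 13 of 18 lipogenic genes (0.55) and 24 of 26 nuclear genes of oxidative phosphorylation (0.43) were higher, where 48.9% of all tested genes were. The test between numbers called 8, 6, 4 and 3 of them upward and 2, 0, 2 and 0 downward. Over all tested genes 8.61% were called upward and 10.1% downward. The 3 of 26 oxidative phosphorylation genes called upward lie near that share, as do the 2 of 18 lipogenic genes called downward. With library totals in place of TMM, the 4 medians stayed positive at 0.21, 0.42, 0.31 and 0.19, and 21 of 26 oxidative phosphorylation genes were higher. Numbers 2 and 3 did not share this direction. Of the urea cycle list 24 of 30 were higher in number 2 (0.17) and 27 of 30 lower in number 3 (-0.30), and of the fatty acid oxidation list 13 of 22 were higher in number 2 (0.04) and 16 of 22 lower in number 3 (-0.05). Lipogenic genes were lower for 13 of 18 in number 2 (-0.16) and higher for 11 of 18 in number 3 (0.04), and oxidative phosphorylation genes lower for 16 of 26 in number 2 (-0.07) and higher for 22 of 26 in number 3 (0.15). Thrsp, a regulator of lipogenesis, measured 453, 721 and 522 CPM in ConA and 5249, 495 and 539 CPM in MSA_ConA, with a difference of 3.80 (SE 0.35, adjusted p = 0.0011 by edgeR). MSA_ConA 1 alone was high, 11.6-fold above ConA 1 (11.3 to 11.96), while ConA 1 lay below the 890 CPM of Control 1. Tat, the tyrosine aminotransferase induced by glucocorticoids, measured 5474, 999 and 984 CPM in ConA and 15564, 767 and 599 CPM in MSA_ConA (difference 2.05, SE 0.32, adjusted p = 0.0079 by edgeR). For Tat the 2 libraries in numbers 2 and 3 were lower with MSA, opposite to number 1.

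Cholesterol synthesis genes leaned lower in number 1 (16 of 23, median -0.65, 2 called upward and 3 downward). Gluconeogenic genes were divided, with 11 of 24 higher and 3 called upward and 6 downward. For both lists the shares over all tested genes were 8.61% called upward and 10.1% downward. Medians of the sinusoidal endothelium, pericentral, circadian, complement and drug-metabolizing P450 lists in number 1 changed sign with library totals, so no direction is given for them. Alb, the gene of albumin and a defining marker of hepatocytes, measured 64209, 91343 and 95521 CPM in ConA and 94091, 86678 and 84539 CPM in MSA_ConA, the level of liver in each.

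Some of the highest ratios in number 1 belong to genes that lie beside or across expressed liver genes. Zpr1, a zinc finger protein gene, measured 103, 30.8 and 33.4 CPM in ConA and 4815, 27.4 and 33.9 CPM in MSA_ConA, 46.9-fold higher in number 1 (44.1 to 49.9; difference 5.62, SE 0.41, adjusted p = 0.00047 by edgeR). It starts 1.25 kb after the end of Apoa5 on the same strand of the strain assembly used in the deposited table. Fbf1, a centrosome protein gene, stood at 34.3 and 2066 CPM in number 1 and between 8.45 and 11.1 CPM elsewhere. Lamb3, a laminin chain gene, stood at 3.59 and 184 CPM in number 1, and its span includes G0s2, an inhibitor of lipolysis (16.1 and 371 CPM in number 1), and Hsd11b1, both on the other strand. The strandedness of the counting is not given in the sources used here, so reads of Lamb3 cannot be told apart from those of G0s2 and Hsd11b1. Whether reads from Apoa5 contribute to Zpr1 was not tested.

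**Figure D2:**
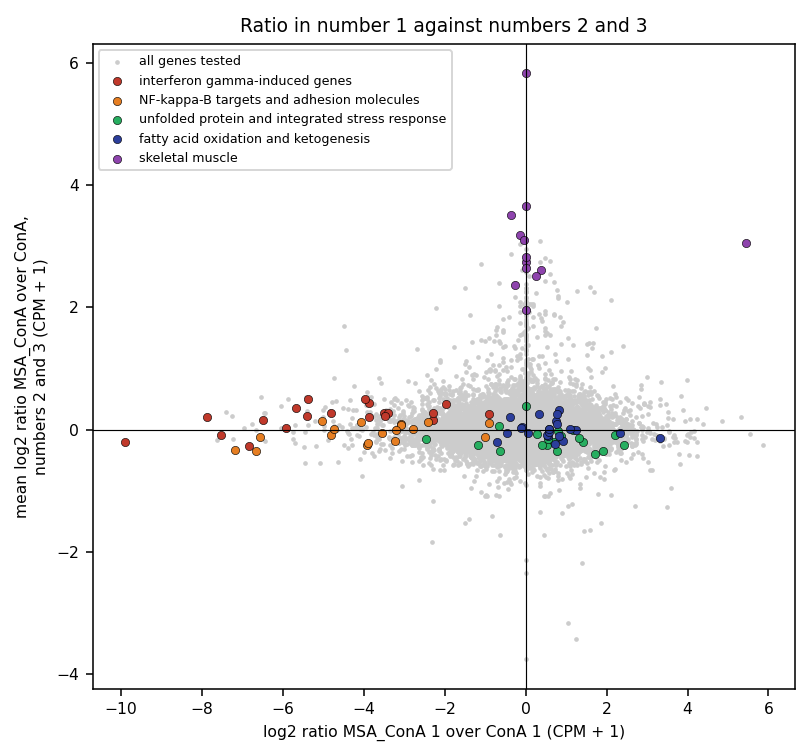
Log2 ratio of MSA_ConA 1 over ConA 1 (horizontal axis) against the mean log2 ratio in numbers 2 and 3 (vertical axis), both of CPM + 1, for each tested gene (grey) and the members of 5 lists (coloured). Interferon gamma and NF-kappa-B genes extend to the left with vertical values near 0, and skeletal muscle genes extend upward, with horizontal values near 0 except for Atp2a1 (1.74 and 119 CPM in ConA 1 and MSA_ConA 1).

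Markers of several inflammatory cell types were lower with these genes in number 1, and so were those of some other cell types. For 5 tested neutrophil markers the sum was 1280 CPM in ConA 1 and 696 CPM in MSA_ConA 1, with all 5 lower. Only 1 was called downward in the test between numbers, where 10.1% of all tested genes were. In Control 1 the sum was 371 CPM and the median of the markers 1.64 CPM, so few markers make up the sum. S100a8 and S100a9, the subunits of calprotectin, measured 111 and 261 CPM in ConA 1 and 17.6 and 28.4 CPM in MSA_ConA 1, and at most 1.24 CPM in numbers 2 and 3. Ly6g, which defines neutrophils, measured 1.94 CPM in ConA 1 and 0 in MSA_ConA 1; it was chosen after its values were seen. Markers of T and NK cells summed to 74.4 and 32.3 CPM, with 10 of 12 lower and 4 called downward. Gzmb, the granzyme of cytotoxic lymphocytes, measured 24.8 CPM in ConA 1 and had no count in MSA_ConA 1, at least 62.8-fold lower. Monocyte and recruited macrophage markers summed to 2171 and 1123 CPM, with 6 of 9 lower and 2 higher. Of these sums Cd14, which presents lipopolysaccharide to its receptor, makes up 1277 and 152 CPM. Without Cd14 the sum was not lower in MSA_ConA 1. The list also holds F10, which the complement and coagulation list shares. For Kupffer cell markers the sums were 450 and 323 CPM, with 9 of 15 lower. Sinusoidal endothelial markers, at 321 and 338 CPM, had 8 of 16 lower, and B and plasma cell markers, at 13.1 and 17.1 CPM, had 5 of 10 lower. Cholangiocyte markers, at 810 and 155 CPM, had 7 of 9 lower. Stellate cell and matrix genes, at 7777 and 3198 CPM, had 19 of 23 lower, and red cell markers, at 180 and 106 CPM, 3 of 3. In bulk liver, fewer cells of a type and less RNA per cell cannot be told apart, and the part of these cells in the gene lists was not tested.

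Transcripts typical of other tissues were found in libraries numbered 2 and 3, and their part in the comparisons there was not tested beyond leaving out single libraries. Summed over 13 skeletal muscle markers, the level was 398 and 68.8 CPM in ConA 2 and 3 and 372 and 4966 CPM in MSA_ConA 2 and 3, against at most 2.40 CPM in the controls. Acta1, the actin of skeletal muscle, measured 0.291, 99.6 and 20.1 CPM in ConA and 0.263, 107 and 1469 CPM in MSA_ConA, so the highest value was in 1 library, MSA_ConA 3. The 121 CPM of the list in MSA_ConA 1 came almost wholly from Atp2a1, a calcium pump, at 119 CPM. Genes of the adrenal gland were found in ConA 2: Star and Cyp11b1, which make steroid hormones, measured 489 and 307 CPM there and at most 6.06 and 0.0553 CPM in the other 8 libraries. Adipoq, the fat cell hormone adiponectin, measured 7.93 CPM in ConA 2 and 7.98 CPM in MSA_ConA 3 and at most 0.340 CPM elsewhere. Star, Cyp11b1 and Adipoq were chosen after their values were seen.

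**Figure D3:**
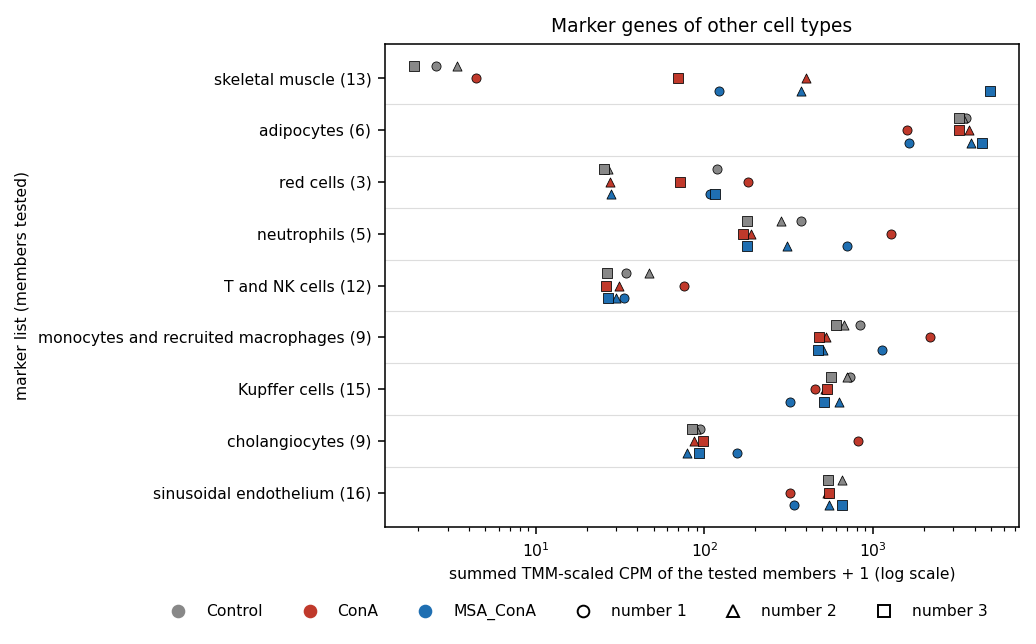
Summed TMM-scaled CPM + 1 (log axis) of the tested markers of 9 cell types (vertical axis) in each of the 9 libraries, coloured by group and shaped by number. Skeletal muscle stands out with 4966 CPM in MSA_ConA 3, and neutrophil, T and NK cell and monocyte sums are highest in ConA 1.

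No gene was called between MSA_ConA and ConA over all libraries (0 of 14603, 0%, edgeR's quasi-likelihood test with Benjamini-Hochberg adjustment). Without adjustment, 248 genes had a p under 0.05, fewer than the 730 that make up 5% of those tested, and DESeq2 called 0 with 308 unadjusted. The spread within each group in this test includes the division by number. Irf1 had a log2 fold change of -4.55 (SE 1.44) and an adjusted p of 1.0 by edgeR. The labels give 3 mice per group, and every p-value here rests on how far these libraries spread.

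Within numbers 2 and 3, where the groups have 2 libraries each, 0 of 14851 genes passed in edgeR (0%), and 783 had a p under 0.05 before adjustment, against the 743 that make up 5%. DESeq2 called 14 genes on the same libraries, 9 higher and 5 lower. Among them were the metabolic genes Cyp7a1 and Pck1 and the muscle genes Jph1 and Ano5. Cyp7a1, the enzyme that limits the making of bile acids, measured 607 and 503 CPM in ConA 2 and 3 and 1003 and 852 CPM in MSA_ConA 2 and 3. Both MSA_ConA libraries were above both ConA libraries and above the 438 and 548 CPM of Control 2 and 3 (log2 fold change 0.75, SE 0.18, adjusted p = 0.93 by edgeR and 0.0497 by DESeq2). In number 1 Cyp7a1 was scarce, at 6.11 and 3.16 CPM, against 51.0 CPM in Control 1, and the difference between numbers passed (-1.69, SE 0.42, adjusted p = 0.033 by edgeR).

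Pck1, the key enzyme of gluconeogenesis, measured 620 and 885 CPM in ConA 2 and 3 and 434 and 300 CPM in MSA_ConA 2 and 3 (log2 fold change -1.03, SE 0.25, adjusted p = 0.93 by edgeR and 0.029 by DESeq2). Number 1 ran the other way, at 1915 and 2901 CPM, and the difference between numbers passed (1.64, SE 0.43, adjusted p = 0.038 by edgeR). Cyp7a1 and Pck1 both lost this call with limma-voom or a replicate block of library numbers, at adjusted p of 0.11 and 0.053 with limma-voom and 0.061 and 0.075 with the block. Zfpm1, a cofactor of GATA factors, measured 77.4 and 72.9 CPM in ConA 2 and 3 and 41.9 and 45.3 CPM in MSA_ConA 2 and 3. Adora1, an adenosine receptor, measured 32.9 and 32.5 CPM in ConA and 19.5 and 19.9 CPM in MSA_ConA. For both, the spread within a group was small beside the gap between groups (log2 fold changes -0.78 and -0.72, SE 0.13 and 0.13, adjusted p = 0.93 each by edgeR and 0.0034 and 0.0497 by DESeq2). In number 1 both were higher with MSA, at 34.2 and 48.6 CPM for Zfpm1 and 28.1 and 45.7 CPM for Adora1.

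Single libraries decided which genes were called in numbers 2 and 3. Without MSA_ConA 2, edgeR called 161 genes, 160 higher, of which 5 were on the skeletal muscle list. Other muscle genes outside that short list were called too, among them Casq1, Cacna1s, Ampd1 and Klhl31, so 5 understates the muscle genes called. Without ConA 3 it called 17, all lower, Star, Cyp11b1, Hsd3b1 and Chga among them, whose transcripts were in ConA 2. Between single libraries, 29 genes were at least 4-fold lower (0.352%) and 5 higher (0.0607%) in number 2, and 3 lower (0.0359%) and 168 higher (2.01%) in number 3. All 13 muscle markers were higher in MSA_ConA 3 than in ConA 3, with a median log2 ratio of 5.69.

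Few genes were on the same side in every library. The 2 groups did not overlap for 371 genes with MSA_ConA lower (2.54%) and 340 with MSA_ConA higher (2.33%). All 3 number-matched ratios were at least 1.5-fold for 6 genes lower (0.0411%) and 11 genes higher (0.0753%). Igfbp1, 1700101I11Rik and Adgrl4 below are among these, while Plin3, Mif, Bnip3 and Atp5h had the same sign in every number but fell short of 1.5-fold in at least 1. Plin3, which coats lipid droplets, measured 64.7, 29.0 and 27.7 CPM in ConA and 37.1, 18.4 and 19.0 CPM in MSA_ConA. Its log2 ratios were -0.79, -0.63 and -0.52 in numbers 1, 2 and 3, although the level in number 1 was higher in both groups, so the groups overlapped. Its log2 fold change was -0.71 (SE 0.43, adjusted p = 1.0) over all libraries and -0.59 (SE 0.13, adjusted p = 0.93) in numbers 2 and 3, both by edgeR. Mif, the macrophage migration inhibitory factor, measured 606, 101 and 88.5 CPM in ConA and 299, 58.3 and 66.0 CPM in MSA_ConA, lower in each number. 1700101I11Rik measured 17.4, 15.97 and 15.9 CPM in ConA and 6.58, 8.52 and 8.29 CPM in MSA_ConA, with no overlap between the groups.

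Igfbp1, the insulin-like growth factor binding protein of the fasting and injured liver, measured 5340, 16.3 and 5.96 CPM in ConA and 3226, 5.09 and 3.45 CPM in MSA_ConA. Among genes that were higher in each number, Adgrl4, an adhesion receptor of endothelium, measured 3.78, 13.5 and 14.0 CPM in ConA and 7.37, 21.3 and 25.0 CPM in MSA_ConA. Its log2 fold change was 0.78 (SE 0.57, adjusted p = 1.0) over all libraries and 0.75 (SE 0.16, adjusted p = 0.93) in numbers 2 and 3 by edgeR. Bnip3, a mitophagy receptor, measured 195, 116 and 122 CPM in ConA and 283, 162 and 169 CPM in MSA_ConA. Atp5h, a subunit of ATP synthase, measured 101, 34.3 and 32.0 CPM in ConA and 146, 58.3 and 50.4 CPM in MSA_ConA. Scd1, the stearoyl-CoA desaturase of lipogenesis, measured 1548, 2317 and 4332 CPM in ConA and 6798, 4491 and 4460 CPM in MSA_ConA. No MSA_ConA library of Scd1 lay below a ConA library, but ConA 3 and MSA_ConA 3 were nearly level.

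**Figure D4:**
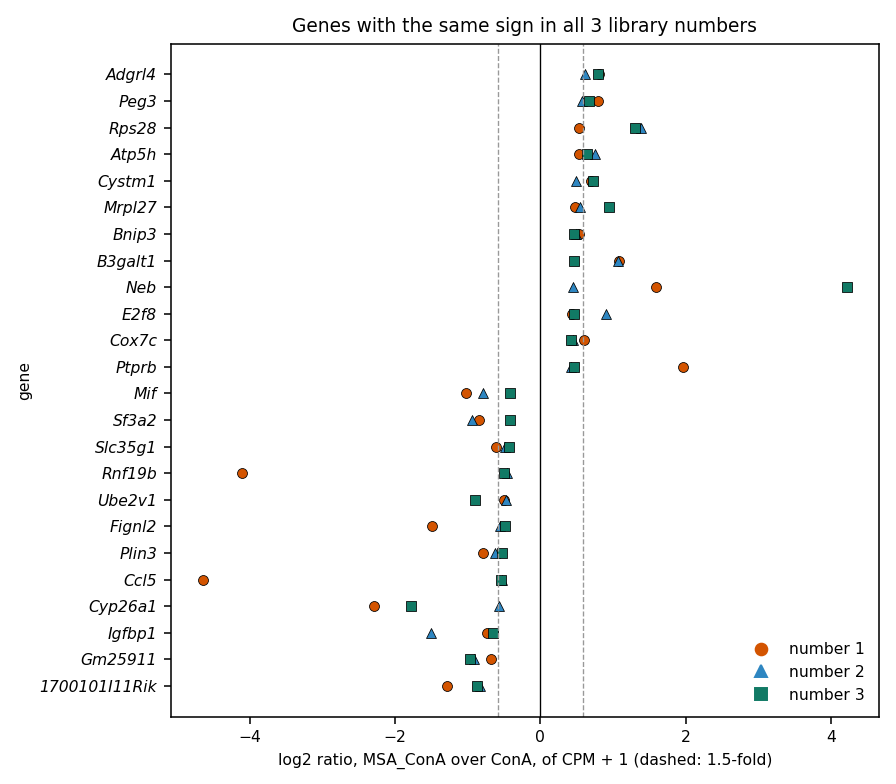
Log2 ratio of MSA_ConA over ConA, from CPM + 1 (horizontal axis), in library numbers 1, 2 and 3 for the 24 genes with the same sign in all 3 and the largest smallest ratio, 12 each way (vertical axis), with dashed lines at 1.5-fold. Adgrl4 has ratios past 1.5-fold in each number and Plin3 falls short of it in number 3, while Rnf19b is far lower in number 1 than in numbers 2 and 3.

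Genes of itaconate and mesaconate metabolism were measured because MSA enters these pathways. In number 1, 16 of 18 tested members were higher with MSA (median log2 ratio 0.35), and 11 of 18 with library totals in place of TMM (0.11). The test between numbers called 1 upward, where 8.61% of all tested genes were, and 0 downward. The called gene was Auh, which encodes a hydratase that acts on methylglutaconyl-CoA, at 33.6, 36.1 and 32.2 CPM in ConA and 71.8, 34.0 and 35.3 CPM in MSA_ConA. Numbers 2 and 3 had medians of -0.05 and -0.17. Acod1, which makes itaconate and was below the expression filter, measured 49.3, 0 and 0.0567 CPM in ConA and 1.05, 0 and 0 CPM in MSA_ConA. ConA 1 was thus high and MSA_ConA 1, with 8 counts, above the rest, and Acod1 was 46.8-fold lower in MSA_ConA 1 (23.6 to 109).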

How the data were processed

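Trizol-extracted total RNA of liver went into an Illumina library kit, per the labels' protocols. Raw read counts for each gene in 9 libraries were deposited by the authors. Their deposited FPKM values, which divide counts by gene length and a size-factor total, entered 1 alternative. The submitters' processing notes name Bowtie 0.12.2, mm10 and mm8 without a role. Counting tool and strandedness: not given in the sources used here. Gene IDs and positions in the deposited files belong to the strain assembly C57BL/6NJ. Columns headed M were taken as MSA_ConA, since no other group starts with that letter.

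Counts were tested with edgeR 4.0.16 (R 4.3.3) quasi-likelihood models with TMM scaling, the default expression filter and a Benjamini-Hochberg adjusted p under 0.05. The models were all 9 libraries with a mean per group (6 residual degrees of freedom), numbers 2 and 3 alone (3), and a mean per group and number class, in which the effect in number 1 was set against that in numbers 2 and 3 (3). Tried as well were limma-voom (limma 3.58.1), DESeq2 1.42.0, other scalings and filters, limma on log2(FPKM + 1), the library number as a block, and leaving out each library. The scripts were tested on simulated data. CPM in the text is TMM-scaled, ratios of lists use CPM + 1, single-library folds have exact 95% binomial intervals and a floor of 3 counts, and both cover counting error only.

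The comparison, its gene lists and the rule for named genes were chosen with earlier results of these data known. Of 828 listed genes 765 matched by symbol and 1 by synonym. Named are 11 cytokine and redox genes, of which Sod2 is not analysed here, the 3 most abundant and 2 most changed members of each list, the 10 largest called changes each way, the 12 largest same-sign ratios each way, the 8 smallest p each way in numbers 2 and 3, and the 10 highest and lowest ratios of number 1. The text gives a subset. Members of a list are not replicates.

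Whether numbers pair libraries was checked on deviations from group means across genes: same-numbered libraries of the 2 groups correlated at 0.720, 0.575 and 0.493, all over the bound of 0.1, though numbers 2 and 3 correlated with each other as well (0.631 and 0.706). Promoter sequences came from RefSeq (GRCm38.p6), matched by symbol, and coordinates of that build were not mixed with those of the deposited table.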

Additional observations from a re-analysis of the deposited data

Results flagged for a closer look

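The ratio of MSA_ConA to ConA in number 1, between 2 single libraries, departed from that in numbers 2 and 3 for many genes. A test of that departure, which takes its spread from numbers 2 and 3 alone (edgeR's quasi-likelihood test, Benjamini-Hochberg adjusted p under 0.05), called 2726 of 14603 genes, 1257 more positive and 1469 more negative in number 1 than in numbers 2 and 3. With library totals in place of TMM the split was 762 against 2044, and the median of all genes moved to -0.28. With 1 library per group in number 1 the calls do not show that the effect of MSA differs between animals of these numbers, and sex, strain and number cannot be told apart.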

How the results depend on the processing

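No gene was called over all libraries under any alternative run. In numbers 2 and 3, where edgeR called 0, no expression filter gave 290 calls (224 higher, 66 lower), DESeq2 14, and leaving out 1 library 0 to 161. The difference between numbers was called for 1623 genes with limma-voom, 1843 with the replicate block, 2806 with library totals and 1368 to 2403 without 1 library numbered 2 or 3, the lowest without ConA replicate 3 and 1631 without ConA replicate 2; without ConA 1 or MSA_ConA 1 it could not be fitted. The count at least 4-fold lower in number 1 (545) became 313 with CPM + 5 and 362 with deposited FPKM + 1, and the count higher (240) became 138 with CPM + 5 and 133 with library totals. Non-overlapping genes numbered 558 lower with no filter and 172 higher with library totals. Leaving out 1 library, chosen after seeing the data, gave 628 to 1641 lower and 660 to 1585 higher, since fewer libraries separate more easily; the genes past 1.5-fold became 2 lower and 0 higher with CPM + 5, and 26 to 329 lower and 50 to 245 higher without 1 library. The replicate block changed no call among the genes tested singly other than Cyp7a1 and Pck1. Socs3, at -0.13 and not called, ran from -0.47 to 0.16 without 1 library, and Scd1 (1.71, adjusted p = 0.053 by edgeR) passed with DESeq2. Depth limits the scarce cytokines, since 3 counts equal 0.395 CPM in MSA_ConA 1.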

Other observations

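Antigen presentation genes were also lower in MSA_ConA 1 than in ConA 1. All 12 tested MHC class I genes were lower (median log2 ratio -1.11, 5 called downward in the test between numbers), and 7 of 8 class II genes (-1.32, 3 called downward). H2-K1, a class I heavy chain gene, measured 8640 and 4348 CPM in ConA 1 and MSA_ConA 1 and 100.3 to 113 CPM in numbers 2 and 3. Reads of this family can be shared between near-identical genes and differ between strains, so its level is uncertain. Cytosolic heat shock chaperones were lower for 9 of 10 members in number 1 (-0.68), opposite in direction to the chaperones of the endoplasmic reticulum. Only 2 of the 10 were called downward. For these 3 lists the share over all tested genes was 10.1% called downward.

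Bile acid synthesis and transport genes were higher for 15 of 23 in number 1 (0.28), 18 of 23 in number 2 (0.29) and 4 of 23 in number 3 (-0.23), so that the libraries numbered 2 and 3 differed in direction. Apoa1, the main protein of high-density lipoprotein, measured 9816, 4902 and 2856 CPM in ConA and 25110, 2472 and 2726 CPM in MSA_ConA. Rab30, a Golgi GTPase, measured 65.5 and 1112 CPM in ConA 1 and MSA_ConA 1 and 7.01 to 8.65 CPM in the others.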
